A study of Mus musculus with 10 samples.

Results

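Matrix metalloproteases (MMPs), ADAMs, ADAMTS proteases, the tolloids Bmp1 and Tll2, and the tissue inhibitors of metalloproteases (TIMPs) were examined in salivary gland cells of female NOD/ShiLtJ mice, an inbred strain prone to autoimmune diabetes and to lymphocyte infiltrates in its salivary glands. Members were the genes whose symbol is Mmp, Adam, Adamts or Timp followed by digits and an optional letter, together with Bmp1 and Tll2. Each gene was represented by its brightest probe set among those assigned to a single gene symbol. There were 79 such genes among 22180 gene symbols on the array: 22 Mmp, 33 Adam, 18 Adamts and 4 Timp genes and 2 tolloids. The 3 groups were diabetic mice at 21 weeks of age (n = 4), nondiabetic mice at 21 weeks (n = 3) and nondiabetic mice at 6 weeks (n = 3). All 10 samples are of the same strain and sex, and no treatment of the animals is given. The labels name neither the gland taken nor the way diabetes was diagnosed. The glands were digested with dispase II and collagenase IV, themselves proteases of the matrix, before RNA extraction, so the arrays measured filtered cells and not intact gland. The labels number the samples of a group but do not say more of how they were taken, so p-values measure the spread between these samples, which may be partly technical.

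MMPs are zinc proteases that are made as inactive proenzymes and, once activated, cut collagens, laminins, proteoglycans and other proteins outside the cell. ADAMs are membrane-anchored relatives that release the outer parts of cytokines, growth factors and adhesion molecules, whereas ADAMTS proteases are secreted and cut proteoglycans, procollagens or von Willebrand factor, and tolloids trim procollagens. TIMPs bind the active site of these enzymes, each with its own range of targets. In salivary glands, MMPs and their inhibitors are known for remodelling the basement membrane around acini and ducts during branching and in inflammatory disease.

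Values were log2 intensities. A gene was tested where its value lay above the array's own 25th percentile, between 2.58 and 2.70 over the arrays, in at least 3 arrays. This left 18826 genes, among them 63 of the 79 members. Each of the 3 comparisons between groups was tested across all of these genes with limma, and adjusted p-values are Benjamini-Hochberg values over all genes, with a threshold of 0.05. Pearson correlations between arrays over these genes ranged from 0.917 to 0.983, and the lowest was between diabetic array 4 and nondiabetic 21-week array 3. These arrays stood apart from the rest. Markers of serous acinar cells were present on every array, with a mean log2 intensity over 9 genes of 10.46 to 10.75 in diabetic mice, 7.87 to 9.01 in nondiabetic 21-week mice and 8.82 to 10.11 in nondiabetic 6-week mice. Duct markers averaged 6.78 to 7.05 in diabetic mice, 7.23 to 7.26 in nondiabetic 21-week mice and 7.06 to 7.32 in nondiabetic 6-week mice. The samples are mixtures of cells, in which fewer cells of a type and less RNA per cell cannot be told apart.

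The 16 members left untested were 13 ADAMs known from the male germ line or epididymis, Mmp1a, Mmp1b and Mmp13 (collagenase 3). For 12 of the 16 the value was below the 25th percentile on every array. Mmp13 ranged only between 2.08 and 2.64 over the 10 arrays. Of the 63 tested members, 47 were above that percentile on all 10 arrays and 16 on 3 to 9 arrays. All 18 Adamts genes, all 4 Timp genes and both tolloids were tested, against 19 of 22 Mmp genes and 20 of 33 Adam genes. Adam34, Adamts2 and Mmp15 share their probe sets with other symbols and were not analysed here.

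In diabetic mice at 21 weeks, 3 of the 63 tested members were higher than in nondiabetic mice of the same age and none was lower. They were Mmp2, Adam28 and Adamts1, a gelatinase, a membrane protease and a proteoglycan-cleaving protease, with fold changes between 1.85 and 2.77. Over all genes, 1.44% passed the same threshold, 1.1% higher and 0.34% lower. Without both arrays that stood apart 1 member, Adam9, passed (limma), and 0 passed without diabetic array 2 or 3 or nondiabetic 21-week array 3. The median change of the members was 0.09 log2, against 0.03 for all genes tested, and 40 of the 63 members (63.5%) had a positive change, against 56.0% of all genes. At an unadjusted p under 0.05, 13 members were higher, where 10.8% of all genes were, and 2 were lower, where 5.04% of all genes were. Diabetic values lay wholly above nondiabetic 21-week values for 11 members, where 9.11% of all genes did, and wholly below for 3, where 4.98% of all genes did.

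**Figure D1:**
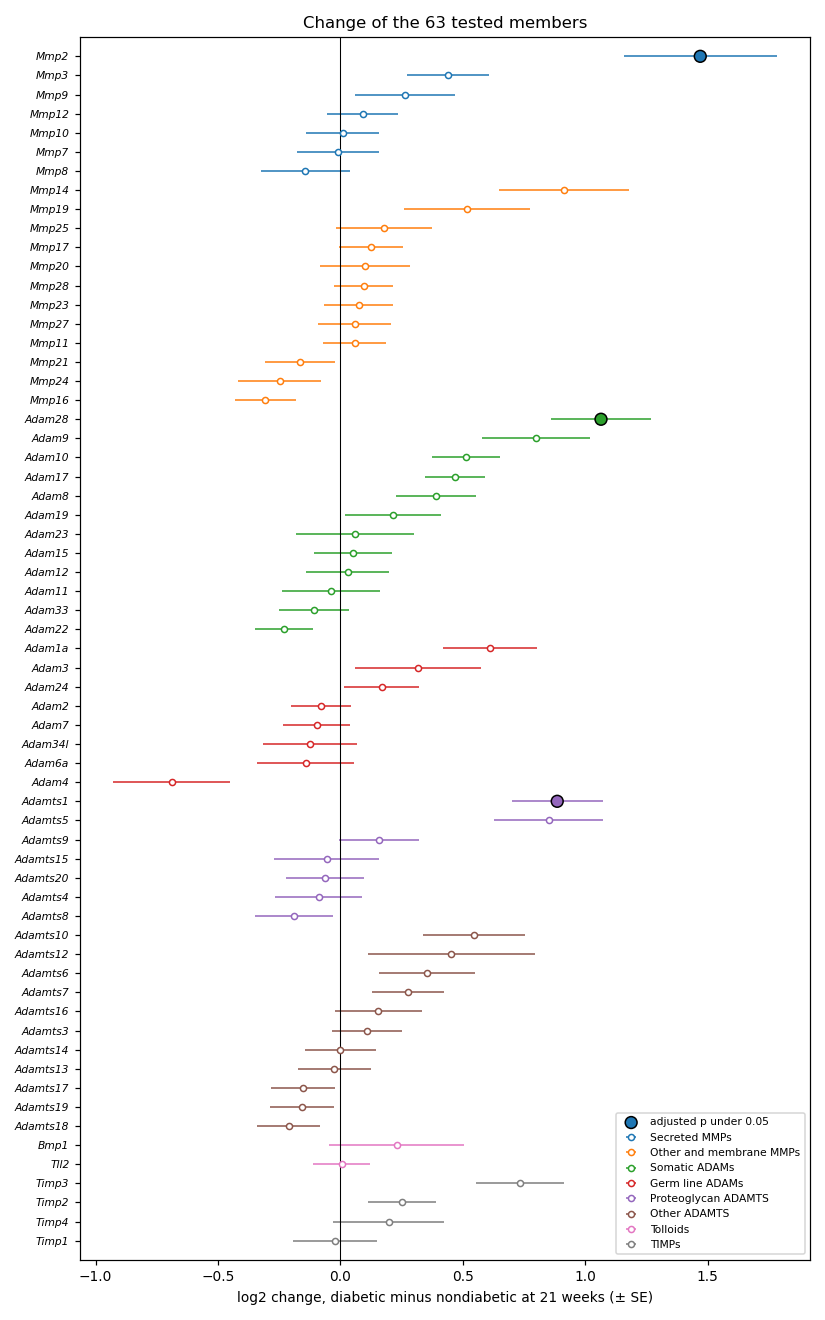
Log2 change of the 63 tested members, diabetic minus nondiabetic at 21 weeks, with the standard error of the fit as the bar, grouped by role and coloured by group. The 3 filled points, Mmp2, Adam28 and Adamts1, have an adjusted p under 0.05, and each lies to the right of 0.

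Mmp2, or gelatinase A, digests denatured collagens and the type IV collagen of basement membranes. Its log2 intensities were 5.94, 5.93, 6.56 and 6.23 in diabetic mice, against 5.13, 5.0035 and 3.96 in nondiabetic 21-week mice, and 6.16, 4.90 and 5.61 in nondiabetic 6-week mice. All diabetic values lay above all nondiabetic values at 21 weeks, while the 6-week group spanned both. The means were 6.16 ± 0.30 in diabetic mice (SD, n = 4), 4.70 ± 0.64 in nondiabetic 21-week mice and 5.56 ± 0.64 in nondiabetic 6-week mice (SD, n = 3 each). Mmp2 was 2.77-fold higher in diabetic than in nondiabetic 21-week mice (log2 change 1.47 ± 0.31 SE, limma adjusted p = 0.0390). The call was lost without diabetic array 1 (adjusted p = 0.0601), 2 (0.0723), 3 (0.125) or 4 (0.0719), without nondiabetic 21-week array 2 (0.0551) or 3 (0.148), and without nondiabetic 6-week array 3 (0.0640), the limma fit otherwise being the same. Without nondiabetic 21-week array 3, the lowest of all 10 for Mmp2, the difference was 2.14-fold, and without this array and diabetic array 4 the adjusted p was 0.149 (limma).

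Of the other secreted MMPs, the collagenases, gelatinases and stromelysins, 6 were tested and 0 passed (limma). At an unadjusted p under 0.05, 1, Mmp3, was higher, where 10.8% of all genes were. Mmp3, or stromelysin 1, which cuts proteoglycans and activates other MMPs, had values of 3.45, 2.82, 3.11 and 3.21 in diabetic mice, 2.51, 2.65 and 2.97 in nondiabetic 21-week mice, and 2.91, 2.85 and 3.16 in nondiabetic 6-week mice. These groups overlapped, 2 of the 3 nondiabetic 21-week values were below the 25th percentile, and the difference at 21 weeks was 0.44 ± 0.17 log2 (SE, limma adjusted p = 0.231). Mmp9, gelatinase B, which neutrophils store and macrophages secrete, averaged 3.54 ± 0.26 in diabetic mice and 3.28 ± 0.35 in nondiabetic 21-week mice (SD, n = 4 and 3, limma adjusted p = 0.561). Changes of Mmp7, Mmp8, Mmp10 and Mmp12 at 21 weeks lay between -0.14 and 0.09 log2. Mmp13, Mmp12, Mmp1b, Mmp3, Mmp1a, Mmp10, Mmp8, Mmp27, Mmp20 and Mmp7 lie together on chromosome 9 in the RefSeq annotation of GRCm38.p6. Of these 10 genes 7 were tested, 0 were called in any of the 3 comparisons by limma, and Mmp3 was the sole one with an unadjusted p under 0.05 at 21 weeks.

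**Figure D2:**
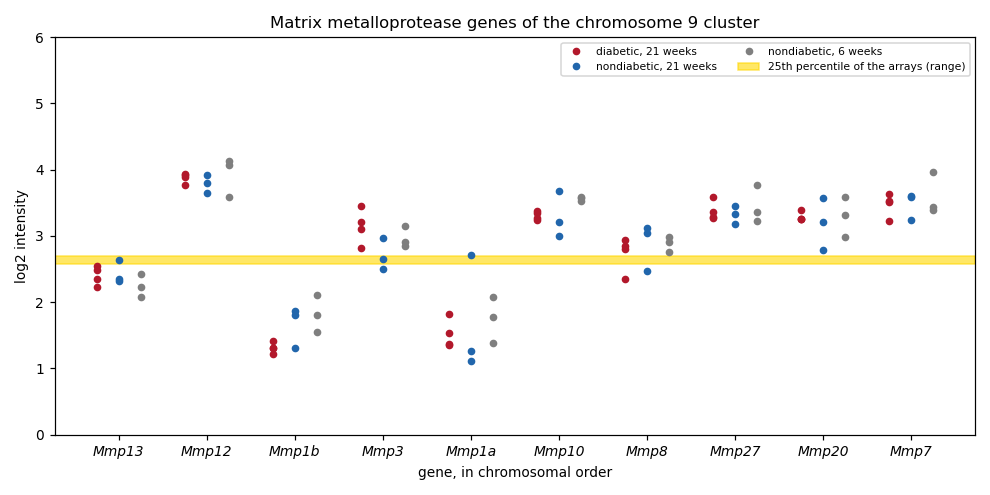
Log2 intensity of the 10 MMP genes of the chromosome 9 cluster on each array, in chromosomal order, with the range of the arrays' 25th percentiles (2.58 to 2.70) as a band. Each dot is 1 array. Mmp13 and Mmp1b lie below the 25th percentile on all arrays, and for each of the 10 genes the values of diabetic and nondiabetic 21-week mice overlap.

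Among the membrane-type and other MMPs, 0 of 12 passed in the comparison of diabetic with nondiabetic mice at 21 weeks (limma). At an unadjusted p under 0.05, 1 was higher and 1 lower, where 10.8% and 5.04% of all genes were. Mmp14, the membrane collagenase that activates the Mmp2 proenzyme at the cell surface, had 5.18, 5.38, 5.63 and 6.10 in diabetic mice, against 4.89, 5.04 and 4.04 in nondiabetic 21-week mice and 5.17, 4.49 and 4.91 in nondiabetic 6-week mice. All 4 diabetic values were above all 6 nondiabetic values, the closest pair being diabetic array 1 and nondiabetic 6-week array 1. The difference at 21 weeks, 0.91 ± 0.26 log2 (SE), had an adjusted p of 0.118 (limma). Without nondiabetic 21-week array 3 it was 0.60 log2 (limma adjusted p = 0.340), and without both arrays that stood apart 0.43 log2 (0.343). Mmp16, another membrane-type MMP, had 3.01, 2.81, 2.90 and 2.70 in diabetic mice, 3.10, 3.36 and 3.03 in nondiabetic 21-week mice, and 3.23, 3.22 and 3.24 in nondiabetic 6-week mice. Its diabetic values lay below both nondiabetic groups, with a difference at 21 weeks of -0.31 ± 0.13 log2 (SE, limma adjusted p = 0.261). Mmp19 was also without overlap at 21 weeks, 3.81 being both the lowest diabetic and, to 2 decimals, the highest nondiabetic value, with a log2 change of 0.52 (limma adjusted p = 0.351). Mmp11, stromelysin 3, and the membrane-anchored Mmp17 differed by 0.06 and 0.12 log2, less than their standard errors of 0.13 each.

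Adam28 is a membrane protease made by lymphocytes and some epithelia and known to release the low-affinity IgE receptor. Its values were 3.95, 4.13, 4.27 and 3.97 in diabetic mice, 3.08, 3.35 and 2.61 in nondiabetic 21-week mice, and 3.13, 3.41 and 2.63 in nondiabetic 6-week mice. Every diabetic value exceeded every nondiabetic value of either age, and the lowest value of each nondiabetic group was below the 25th percentile of its array. Adam28 was 2.09-fold higher in diabetic than in nondiabetic mice at 21 weeks (log2 change 1.06 ± 0.20 SE, limma adjusted p = 0.0245). The call was lost without diabetic array 2 (limma adjusted p = 0.0662) or 3 (0.0868), and without nondiabetic 21-week array 1 (0.0567) or 3 (0.107). It was also lost without both arrays that stood apart (limma adjusted p = 0.0867). Adam7, its neighbour on chromosome 14 and known from the epididymis, had a log2 change of -0.10.

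Of the 11 other tested somatic ADAMs, 4 had a higher mean in diabetic mice at an unadjusted p under 0.05, none past the adjusted threshold. Of all genes, 10.8% were higher at that p. Adam9, a widely expressed sheddase, had 7.24, 7.14, 7.21 and 6.32 in diabetic mice, against 5.83, 6.49 and 6.22 in nondiabetic 21-week mice and 6.16, 6.34 and 6.30 in nondiabetic 6-week mice. Diabetic arrays 1, 2 and 3 were close together and above all nondiabetic arrays, while diabetic array 4 lay among the nondiabetic ones. The difference at 21 weeks was 0.80 ± 0.22 log2 (SE, limma adjusted p = 0.102), and without diabetic array 4 it was 1.02 log2, or 2.03-fold, with an adjusted p of 0.0101 (limma).

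Adam10, which cleaves Notch, E-cadherin and amyloid precursor protein, had 6.99, 6.87, 6.82 and 6.49 in diabetic mice, 6.37, 6.39 and 6.08 in nondiabetic 21-week mice, and 6.53, 6.60 and 6.55 in nondiabetic 6-week mice. The groups at 21 weeks did not overlap, and diabetic array 4 was the lowest of its group here too. Its difference at 21 weeks, 0.51 ± 0.14 log2 (SE), had an adjusted p of 0.0988 (limma). Without diabetic array 4 it passed (adjusted p = 0.0378), without nondiabetic 21-week array 3, the lowest of the 10, it was 0.41 log2 (0.290), and without both arrays the adjusted p was 0.0842 (limma). Adam17, the converting enzyme of tumour necrosis factor and of several ligands of the epidermal growth factor receptor, had 5.32, 5.36, 5.31 and 5.05 in diabetic mice, 4.77, 4.75 and 4.85 in nondiabetic 21-week mice, and 5.24, 4.99 and 4.99 in nondiabetic 6-week mice. The nondiabetic 21-week values were the lowest 3 of the 10, and the difference at 21 weeks was 0.47 ± 0.12 log2 (SE, limma adjusted p = 0.0860). Adam8, found on leukocytes, had a log2 change of 0.39 ± 0.16 (SE, limma adjusted p = 0.272), with its highest value, 4.04, on diabetic array 4. Adam12 and Adam15 differed by 0.03 and 0.05 log2, less than their standard errors of 0.17 and 0.16.

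The promoters of the members with the smallest p at 21 weeks for which RefSeq (GRCm38.p6) gave one are printed here, with that of Mmp3 as the one tested MMP with an unadjusted p under 0.05 and an AP-1 motif. AP-1, the dimer of Fos and Jun proteins, is the best known inducer of several MMP genes. Each stretch runs from 250 bases before to 50 bases after the start of transcription, 5′ to 3′ on the gene's strand: Adamts1 on the minus strand of chr16:85803064-85803363, Timp3 on the plus strand of chr10:86300162-86300461, Adam17 on the minus strand of chr12:21373583-21373882, and Mmp3 on the plus strand of chr9:7445572-7445871. Capitals mark AP-1 (TGANTCA), GC boxes (GGGCGG) and TATA boxes (TATAAA) on either strand.
Adamts1: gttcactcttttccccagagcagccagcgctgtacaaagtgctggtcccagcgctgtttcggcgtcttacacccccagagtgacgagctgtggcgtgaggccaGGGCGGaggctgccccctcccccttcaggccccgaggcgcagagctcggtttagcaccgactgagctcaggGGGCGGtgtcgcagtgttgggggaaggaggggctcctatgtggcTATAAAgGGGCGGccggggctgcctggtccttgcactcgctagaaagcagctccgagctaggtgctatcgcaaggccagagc
Timp3: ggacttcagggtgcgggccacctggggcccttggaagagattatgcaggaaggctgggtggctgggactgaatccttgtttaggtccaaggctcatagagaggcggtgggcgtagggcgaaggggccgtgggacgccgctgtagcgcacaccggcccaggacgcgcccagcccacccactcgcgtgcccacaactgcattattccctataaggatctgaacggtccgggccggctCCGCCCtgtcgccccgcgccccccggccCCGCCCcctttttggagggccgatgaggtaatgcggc
Adam17: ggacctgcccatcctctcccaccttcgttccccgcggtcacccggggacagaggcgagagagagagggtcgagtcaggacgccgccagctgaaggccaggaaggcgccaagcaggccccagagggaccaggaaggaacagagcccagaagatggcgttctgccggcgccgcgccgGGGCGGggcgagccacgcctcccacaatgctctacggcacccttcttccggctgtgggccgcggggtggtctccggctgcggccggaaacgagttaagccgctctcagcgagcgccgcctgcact
Mmp3: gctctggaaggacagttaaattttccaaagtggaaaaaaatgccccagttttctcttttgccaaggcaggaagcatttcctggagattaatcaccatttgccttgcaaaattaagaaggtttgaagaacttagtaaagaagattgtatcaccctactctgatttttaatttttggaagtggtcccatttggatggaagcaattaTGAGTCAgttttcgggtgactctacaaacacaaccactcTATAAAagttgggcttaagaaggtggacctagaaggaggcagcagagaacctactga
The AP-1 motif stood in the Mmp3 stretch and in none of the other 3, which held GC boxes. A promoter was matched for 48 of the 79 members, not including Mmp2, Adam28, Adamts5 or Adam9. AP-1 was found in 11 of the 48 (22.9%), against 7.93% of 27025 genes. Those members were Mmp1a, Mmp1b, Mmp3, Mmp7, Mmp10, Mmp13 and Mmp20, all of the chromosome 9 cluster, and Adam1b, Adam20, Adam25 and Adam29. Of these, only Mmp3, Mmp7, Mmp10 and Mmp20 were among the tested members. GC boxes stood in 41.7% of member promoters, against 35.9% of all, and TATA boxes in 29.2%, against 14.2%.

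Of the 8 tested ADAMs known from the male germ line or epididymis, 0 passed at 21 weeks (limma). At an unadjusted p under 0.05, 1 was higher and 1 lower, where 10.8% and 5.04% of all genes were. The defining markers of male germ cells averaged 2.56 to 2.72 in diabetic mice, 2.67 to 2.81 in nondiabetic 21-week mice and 2.72 to 2.92 in nondiabetic 6-week mice, close to the 25th percentile. Adam4 had 2.14, 2.56, 2.68 and 1.54 in diabetic mice, 2.77, 3.03 and 2.96 in nondiabetic 21-week mice, and 3.29, 2.93 and 3.52 in nondiabetic 6-week mice. Its diabetic values were the lowest 4 of the 10, with 3 of them under the 25th percentile, and the difference at 21 weeks was -0.69 ± 0.24 log2 (SE, limma adjusted p = 0.189), or -0.46 log2 without diabetic array 4 (0.247). Adam1a averaged 3.48 ± 0.22 in diabetic mice and 2.87 ± 0.45 in nondiabetic 21-week mice (SD, n = 4 and 3, limma adjusted p = 0.152), and the groups overlapped. Without nondiabetic 21-week array 1 the difference was 0.86 log2 (limma adjusted p = 0.0377).

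Adamts1, which cuts aggrecan and versican, had 5.41, 5.02, 5.26 and 5.11 in diabetic mice, 4.64, 4.40 and 3.90 in nondiabetic 21-week mice, and 4.86, 4.38 and 4.87 in nondiabetic 6-week mice. The diabetic values were the highest 4 of the 10. Adamts1 was 1.85-fold higher in diabetic than in nondiabetic mice at 21 weeks (log2 change 0.89 ± 0.19 SE, limma adjusted p = 0.0369). The call was lost without diabetic array 1 (limma adjusted p = 0.0806), 2 (0.0650), 3 (0.114) or 4 (0.0537), nondiabetic 21-week array 2 (0.0723) or 3 (0.140), or nondiabetic 6-week array 3 (0.0552). Without both arrays that stood apart the limma adjusted p was 0.114, and with only the arrays of the 2 groups in the fit it was 0.0600.

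Adamts5, the main aggrecanase of mouse cartilage and the neighbour of Adamts1 on chromosome 16, had 3.97, 3.79, 3.71 and 3.74 in diabetic mice, 3.15, 3.09 and 2.61 in nondiabetic 21-week mice, and 3.80, 2.69 and 3.41 in nondiabetic 6-week mice. The groups at 21 weeks did not overlap, while nondiabetic 6-week array 1 lay among the diabetic values. The difference at 21 weeks was 0.85 ± 0.22 log2 (SE, limma adjusted p = 0.0855), close in size to that of Adamts1. It passed with only the arrays of the 2 groups in the fit (limma adjusted p = 0.0411) and without nondiabetic 6-week array 2 (0.0331), and was at 0.68 log2 (0.279) without nondiabetic 21-week array 3. Adamts4, the other well-known aggrecanase, differed by -0.09 ± 0.18 log2 (SE). Of the 7 proteoglycan-cleaving ADAMTS genes 1 passed, and their median change was -0.06 log2. Among the 11 tested ADAMTS genes that process procollagen, von Willebrand factor and other proteins, 0 passed (limma) and 1, Adamts10, known for its role in fibrillin microfibrils, had an unadjusted p under 0.05 (0.54 ± 0.21 log2 SE, adjusted p = 0.237). Of all genes, 10.8% were higher at that p. Bmp1, the procollagen C-proteinase, differed by 0.23 ± 0.27 log2 and Tll2 by 0.00 ± 0.12 log2 (SE), neither beyond its error.

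**Figure D3:**
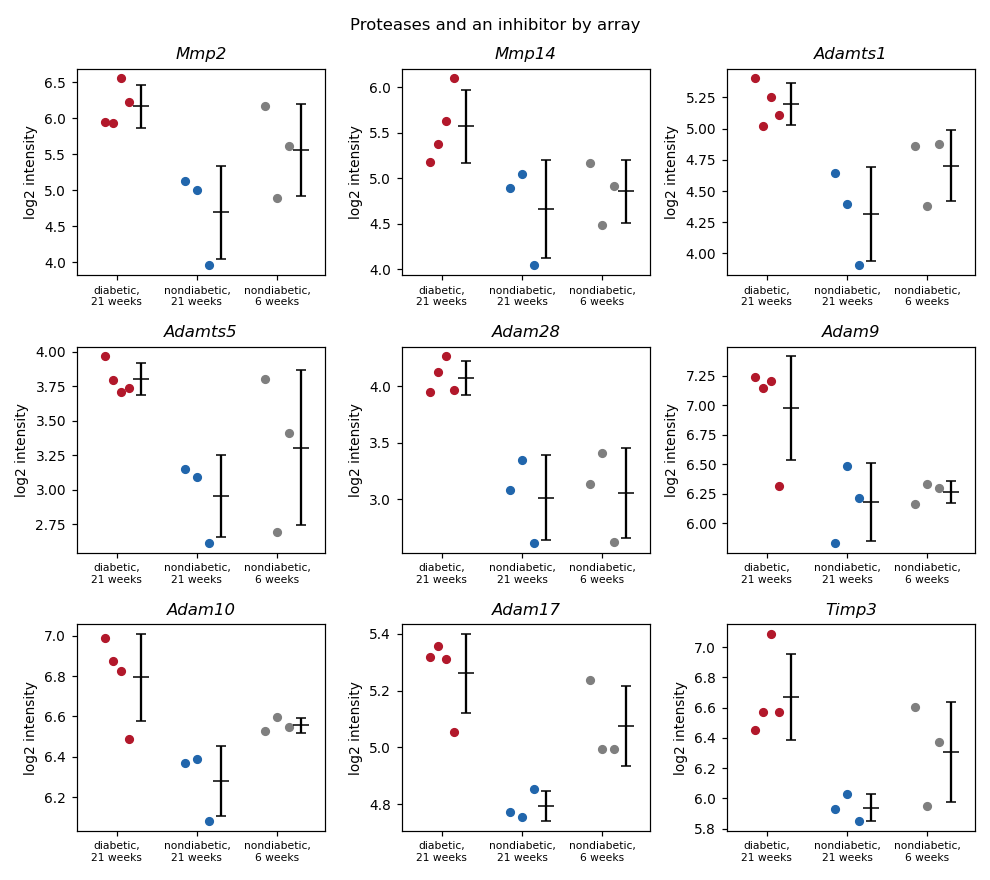
Log2 intensity of Mmp2, Mmp14, Adamts1, Adamts5, Adam28, Adam9, Adam10, Adam17 and Timp3 on each array. Dots are arrays, and the bars show the mean ± SD of each group (n = 4, 3 and 3). These are the members with the smallest p between diabetic and nondiabetic mice at 21 weeks. For all but Adam9 the diabetic values lie above the nondiabetic 21-week values without overlap, and Mmp2 has its lowest value, 3.96, on a nondiabetic 21-week array. Over the 63 tested members this held for 11, where it did for 9.11% of all genes.

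Of the 4 inhibitors, 0 passed at 21 weeks (limma) and 1, Timp3, was higher at an unadjusted p under 0.05, where 10.8% of all genes were. Timp3, which stays bound to the matrix and inhibits ADAM17 and aggrecanases as well as MMPs, had 6.45, 6.57, 7.09 and 6.57 in diabetic mice, 5.93, 6.03 and 5.85 in nondiabetic 21-week mice, and 6.60, 5.95 and 6.37 in nondiabetic 6-week mice. The groups at 21 weeks did not overlap, and the 6-week group spanned the gap between them. Its difference, 0.73 ± 0.18 log2 (SE), had a limma adjusted p of 0.0668. It passed with a trended and robust variance model (adjusted p = 0.0399) and in 0 of 10 limma fits that left out 1 array, with an adjusted p of up to 0.206 without nondiabetic 21-week array 3. Timp2, which inhibits Mmp2 and also takes part in its activation by Mmp14, averaged 6.68 ± 0.20 in diabetic mice and 6.43 ± 0.09 in nondiabetic 21-week mice (SD, n = 4 and 3), a difference of 0.25 ± 0.14 log2 (SE, limma adjusted p = 0.407). Timp1, a soluble inhibitor induced in inflamed tissue, was at 2.74 ± 0.17 in diabetic mice and 2.77 ± 0.15 in nondiabetic 21-week mice (SD, n = 4 and 3), and 1 array of each of the 3 groups was below the 25th percentile. The 95% confidence interval of its difference was -0.40 to 0.35 log2. Timp4 differed by 0.20 ± 0.23 log2 (SE).

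Between nondiabetic mice at 21 weeks and at 6 weeks, 0 of the 63 members passed (limma), against 0.0266% of all genes, or 5 genes (0.00531% higher and 0.0212% lower). At an unadjusted p under 0.05, 1 member was higher, where 2.19% of all genes were, and 2 were lower, where 5.27% of all genes were. The median change of the members was -0.12 log2, against -0.06 over all genes, and 18 of the 63 (28.6%) had a positive change, against 38.2% of all genes. Mmp2 was at -0.86 ± 0.33 log2 (SE, limma adjusted p = 0.629), with overlapping values, and at -0.49 log2 without nondiabetic 21-week array 3. Adamts3, which processes procollagens and vascular endothelial growth factor C, had 2.83, 2.78 and 2.92 in nondiabetic 21-week mice, against 3.45, 3.49 and 2.98 in nondiabetic 6-week mice. The 21-week values were all below the 6-week values, 1 of them narrowly, with a difference of -0.46 ± 0.15 log2 (SE, limma adjusted p = 0.572). Adamts18 averaged 3.16 ± 0.05 in nondiabetic 21-week mice and 2.84 ± 0.23 in nondiabetic 6-week mice (SD, n = 3 each, limma adjusted p = 0.635). Nondiabetic 21-week values lay wholly below 6-week values for 6 members, Adam8, Adam10, Adam17, Adamts3, Mmp17 and Tll2, where 9.73% of all genes did. They lay wholly above for Adamts18 alone, where 4.11% of all genes did. Adam28 was at -0.04 ± 0.22 log2 (SE), with a 95% interval of -0.51 to 0.43.

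Between diabetic mice at 21 weeks and nondiabetic mice at 6 weeks, groups that differ in both age and diabetes, 1 of 63 members passed, against 1.44% of all genes. This was Adam28, 2.03-fold higher in diabetic mice (log2 change 1.02 ± 0.20 SE, limma adjusted p = 0.0311), where 0.903% of all genes were higher and 0.542% lower. The comparison shares its diabetic arrays with the first and its 6-week arrays with the second, so the 3 are not independent. Lymphoid markers also passed in this comparison: Cd3g of 8 T cell markers was 3.93-fold higher (limma adjusted p = 0.0122) and Jchain of 6 plasma cell markers 9.04-fold higher (0.0145). Of 8 B cell markers 0 passed (limma), and at an unadjusted p under 0.05, 5 of 8 T cell, 5 of 8 B cell and 3 of 6 plasma cell markers were higher and none lower. Of the other marker lists, Acta2, Cpa3 and Amy1 were also called higher, and Scnn1b and 4 of 5 markers of granular convoluted tubules lower. Macrophage markers had 6 of 10 higher and 0 lower at an unadjusted p under 0.05. Between nondiabetic 21-week and 6-week mice the T and B cell lists had medians of 0.59 and 0.58 log2. Adam28 was at -0.04 log2 there. The part of any of these cell types in the Adam28 result was not tested. The Cd3g call was lost without nondiabetic 6-week array 1, 2 or 3 (limma adjusted p = 0.0545, 0.0604 and 0.0628), and the Jchain call without diabetic array 3 (0.0523) or 6-week array 2 (0.0751) or 3 (0.0895) and with a trended and robust variance model (0.0707). The Adam28 call was lost without diabetic array 2 (limma adjusted p = 0.0737) or 3 (0.0922), and without nondiabetic 6-week array 1 (0.0860) or 3 (0.133). Mmp2 and Adamts1 were at 0.61 ± 0.31 and 0.50 ± 0.19 log2 (SE, limma adjusted p = 0.401 and 0.229). Without nondiabetic 6-week array 1 the Mmp2 difference was 0.91 log2 (limma adjusted p = 0.281), and without array 2 of that group it was 0.27 log2 (0.785). The Adamts1 difference was 0.33 log2 without nondiabetic 6-week array 2. For Mmp14 the difference was 0.71 ± 0.26 log2 and for Adam9 0.71 ± 0.22 log2 (SE, limma adjusted p = 0.224 and 0.145). Without diabetic array 4 the Adam9 difference was 0.93 log2, with an adjusted p of 0.0157 (limma). Adam4 was at -1.02 ± 0.24 log2 (SE, limma adjusted p = 0.0580), and Adamts16 at 0.39 ± 0.18 log2 (SE, limma adjusted p = 0.319). The median of the members was -0.05 log2, against -0.02 for all genes. Unadjusted p-values were under 0.05 for 10 members, of which 7 were higher and 3 lower, where 7.7% and 7.23% of all genes were. Diabetic values lay wholly above 6-week values for 4 members, Adam28, Adamts1, Mmp11 and Mmp14, where 8.2% of all genes did, and wholly below for 4, Adam4, Mmp10, Mmp16 and Tll2, where 8.49% did. For Mmp11 this held for the brighter of its probe sets (0.24 log2), while the dimmer one, above the 25th percentile on all 10 arrays, was at -0.22 log2.

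Over the 3 groups, nondiabetic 21-week mice had the lowest mean for 35 of the 63 members (55.6%), where they did for 41.6% of all genes. Diabetic mice had the lowest mean for 18 members and nondiabetic 6-week mice for 10. One array, nondiabetic 21-week array 3, held the lowest of the 10 values for 23 members (36.5%), where it did for 31.5% of all genes. The SD between arrays of a group, pooled over the 3 groups, had a median of 0.24 log2 over the members, against 0.20 over all genes tested. It was largest for Adamts12 (0.57), Mmp2 (0.52), Bmp1 (0.45) and Mmp14 (0.43). Of the members, 6 had more than 1 probe set, and the brighter and the dimmer one could differ in sign. Between nondiabetic 21-week and 6-week mice they were at 0.18 and -0.26 log2 for Mmp11, 0.16 and -0.34 log2 for Adamts14 and 0.022 and -0.10 log2 for Adam15. Between diabetic 21-week and nondiabetic 6-week mice they were at 0.24 and -0.22 log2 for Mmp11, 0.16 and -0.28 log2 for Adamts14 and 0.17 and -0.081 log2 for Adam19, whose dimmer probe set was below the 25th percentile on every array. Between diabetic and nondiabetic mice at 21 weeks the signs differed for Adamts14, at -0.00018 and 0.058 log2. The 3 members called at 21 weeks had 1 probe set each.

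**Figure D4:**
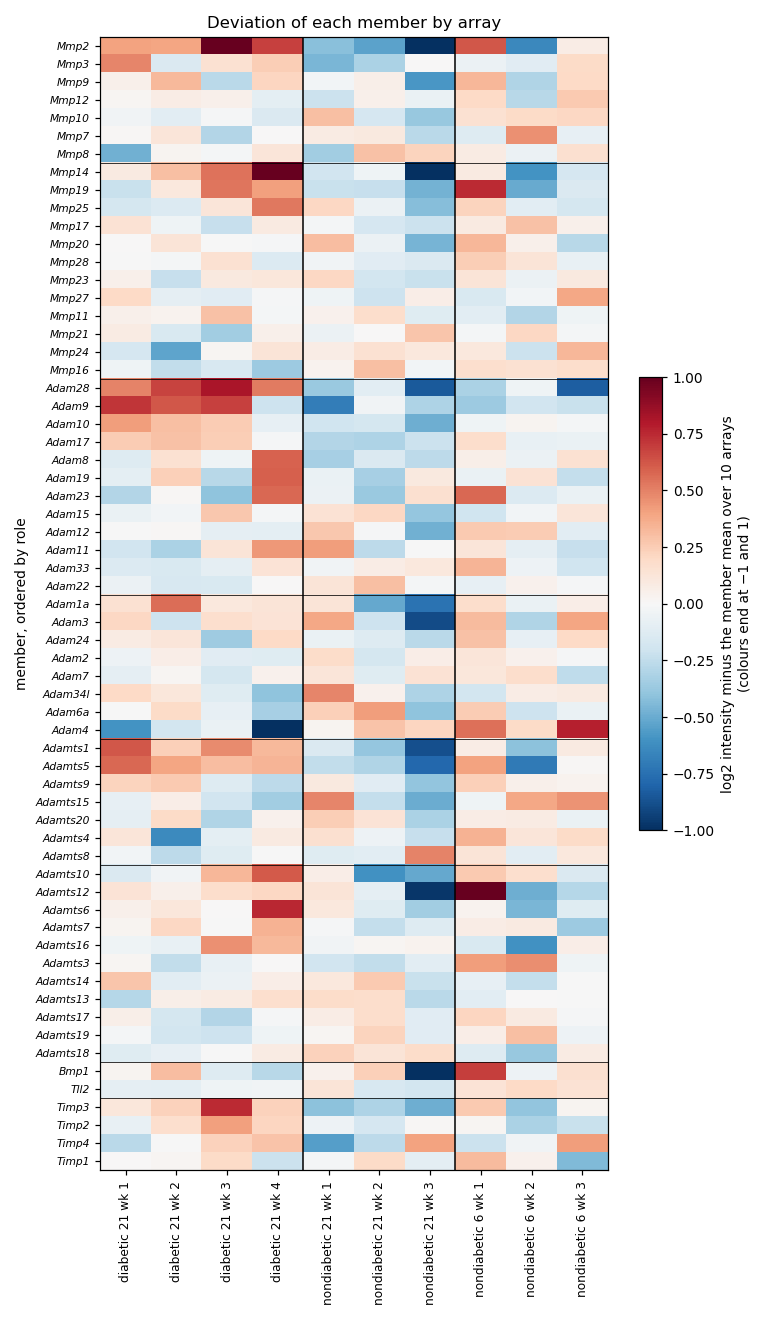
Each tested member's log2 intensity on each array minus its mean over the 10 arrays, with members in rows ordered by role and arrays in columns by group; colours end at -1 and 1. The column of nondiabetic 21-week array 3 is the darkest blue, being the lowest array for 23 of the 63 members, while Mmp2, Adam28, Adamts1 and Adamts5 are red on all 4 diabetic arrays.

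Marker lists of several cell types differed between the groups in the same direction as Mmp2, Adamts1 and Timp3, and their part in the results was not tested. Of all genes, 1.44% passed at 21 weeks, 1.1% higher and 0.34% lower, and 10.8% were higher and 5.04% lower at an unadjusted p under 0.05. The mean log2 intensity of 8 fibroblast markers was 5.87 to 6.22 in diabetic mice, 4.72 to 5.65 in nondiabetic 21-week mice and 5.11 to 6.67 in nondiabetic 6-week mice. None of the 8 passed at 21 weeks (limma), 4 were higher at an unadjusted p under 0.05, and their median change was 0.87 log2. The fibroblast mean was lowest on nondiabetic 21-week array 3, and within the 6-week group on array 2, as was Mmp2. That 21-week array also held the lowest value for 31.5% of all genes. The part of fibroblasts in the Mmp2 result was not tested. Macrophage markers averaged 5.63 to 6.14 in diabetic mice, 4.997 to 5.21 in nondiabetic 21-week mice and 4.91 to 5.45 in nondiabetic 6-week mice, and 2 of 10 passed at 21 weeks, Cd68 (2.24-fold higher, limma adjusted p = 0.0205) and Mrc1 (2.88-fold higher, limma adjusted p = 0.0397). The Cd68 call was lost without nondiabetic 21-week array 1 (limma adjusted p = 0.0575) or 3 (0.0996). The Mrc1 call held only without diabetic array 2 or nondiabetic 6-week array 1 or 2, and leaving out any other array lost it, with an adjusted p of up to 0.161 without nondiabetic 21-week array 3 (limma). Markers of pericytes and smooth muscle averaged 4.94 to 5.08 in diabetic mice, 4.29 to 4.68 in nondiabetic 21-week mice and 4.74 to 4.98 in nondiabetic 6-week mice, with Acta2 and Myh11 called higher at 21 weeks among 8. The Acta2 call was lost without diabetic array 2 (limma adjusted p = 0.0759) or 4 (0.0560) or nondiabetic 21-week array 3 (0.107), and the Myh11 call without diabetic array 1 (0.0526), 2 (0.0686) or 3 (0.0549) or nondiabetic 21-week array 3 (0.0510). Both also mark myoepithelial cells, whose list had these 2 called among 6. Adipocyte markers averaged 4.26 to 4.57 in diabetic mice, 3.73 to 4.07 in nondiabetic 21-week mice and 4.04 to 4.15 in nondiabetic 6-week mice. Of 5 adipocyte markers 3 were higher at 21 weeks at an unadjusted p under 0.05, and Fabp4 passed (2.59-fold, limma adjusted p = 0.0150), though not without diabetic array 3 (0.0549) or nondiabetic 21-week array 3 (0.0760). Among 9 serous acinar markers Amy1, Bpifa2 and Smr3a were higher in diabetic mice at 21 weeks, 37.6-fold, 6.56-fold and 138-fold (limma adjusted p = 0.000519, 0.0306 and 0.0155). The other 6 did not pass, and the list's median change was 0.37 log2. Diabetic values lay wholly above nondiabetic 21-week values for 4 of the 9 and wholly below for 2, where 9.11% and 4.98% of all genes did. With 1 array left out, the Amy1 call held in 10 of 10 fits. The Bpifa2 call held in 4 (limma adjusted p up to 0.0895) and the Smr3a call in 7 (up to 0.0575). Among 8 duct markers Scnn1b and Ascl3 were lower, at -1.12 and -1.24 log2 (limma adjusted p = 0.00328 and 0.0104). The duct list went both ways, with 4 lower and 2 higher at an unadjusted p under 0.05 and a median change of -0.28 log2. The part of these cell types in the members' results was not tested.

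T cell markers averaged 4.31 to 5.52 in diabetic mice, 4.02 to 4.73 in nondiabetic 21-week mice and 3.53 to 3.79 in nondiabetic 6-week mice, and B cell markers 3.78 to 5.37, 3.66 to 4.23 and 3.37 to 3.48 in the same groups. At 21 weeks 0 of 8 T cell markers and 0 of 8 B cell markers passed (limma), with 1 and 0 at an unadjusted p under 0.05. Plasma cell markers averaged 4.45 to 6.00 in diabetic mice, 4.38 to 4.60 in nondiabetic 21-week mice and 3.97 to 4.32 in nondiabetic 6-week mice, and 0 of 6 passed at 21 weeks (limma), with 2 higher at an unadjusted p under 0.05. The highest T and B cell means were those of diabetic array 4, on which Adam8 and Mmp14 were also highest and Adam9, Adam10 and Adam17 lowest within the group. Adam28 had 3.97 on that array, within the range of the other diabetic arrays. The part of lymphocytes in the level of any member was not tested. Neutrophil markers averaged 2.80 to 3.30 in diabetic mice, 2.84 to 2.94 in nondiabetic 21-week mice and 2.76 to 2.998 in nondiabetic 6-week mice. Endothelial markers overlapped between the groups at 21 weeks, at 5.26 to 5.67 in diabetic and 5.21 to 5.71 in nondiabetic mice. Markers of granular convoluted tubules, the hormone-responsive duct segment of rodent glands, averaged 4.88 to 7.23 in diabetic mice, 9.96 to 10.88 in nondiabetic 21-week mice and 8.81 to 9.29 in nondiabetic 6-week mice.

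**Figure D5:**
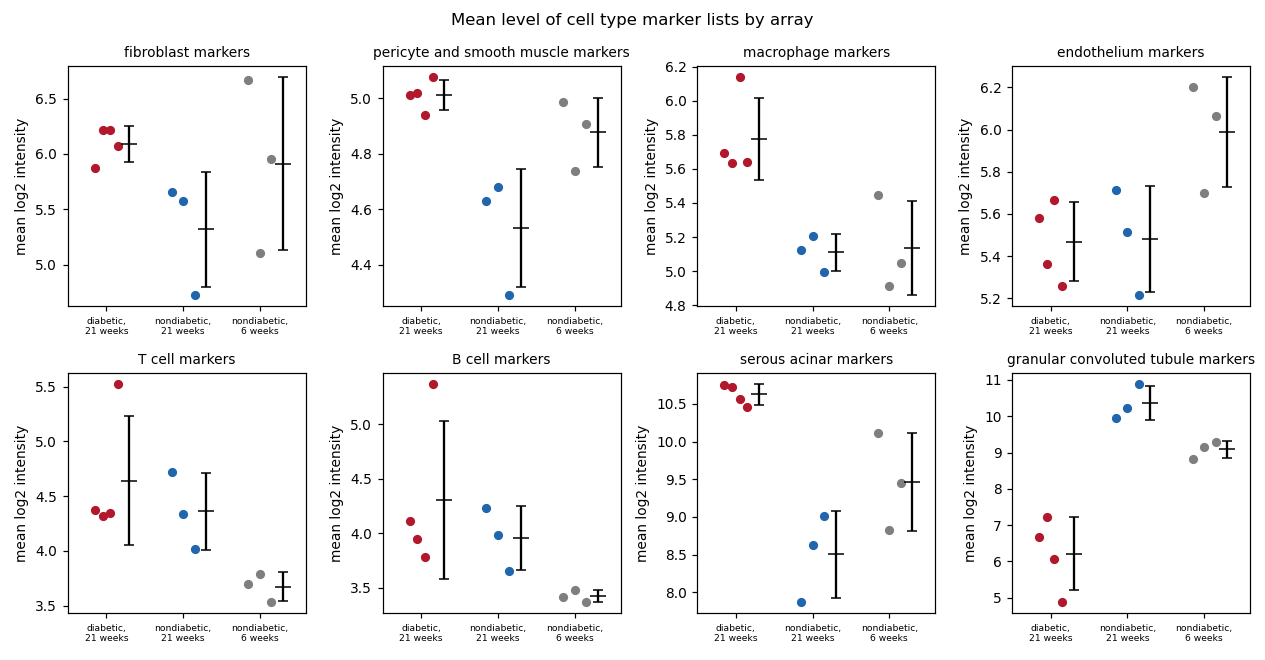
Mean log2 intensity of 8 cell type marker lists on each array. Dots are arrays, and the bars show the mean ± SD of each group (n = 4, 3 and 3). Fibroblast, pericyte, macrophage and serous acinar means are higher in diabetic than in nondiabetic 21-week mice on every array, and those of granular convoluted tubules lower. Of the 9 serous acinar markers 3 were called higher and 6 did not pass (limma), with a median change of 0.37 log2.

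Genes around the members in their pathways were read from the same fit, in which 1.44% of all genes passed at 21 weeks. At 21 weeks 0 of 10 activators of the proenzymes, 0 of 7 other inhibitors, 0 of 9 partners of ADAM10 and ADAM17, 0 of 14 ADAMTS substrates and related proteins and 0 of 11 tolloid substrates and enhancers passed (limma). At an unadjusted p under 0.05, the higher ones among these were 4, 2, 2, 3 and 2, and none was lower. Of all genes, 10.8% were higher and 5.04% lower at that p. The medians of these lists were 0.34, 0.20, 0.16, 0.09 and 0.27 log2, against 0.03 for all genes. The smallest p-values belonged to Pcsk6, a proprotein convertase (0.46 log2, limma adjusted p = 0.203), Pzp, a broad protease inhibitor of plasma (1.11 log2, 0.0502), Rhbdf2, which brings ADAM17 to the cell surface (0.52 log2, 0.0668), Vwf, the substrate of ADAMTS13 (1.06 log2, 0.0805), and Bgn, a small matrix proteoglycan (1.40 log2, 0.0502).

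Of 18 membrane proteins shed by ADAMs 1 passed, Egf, a growth factor of granular convoluted tubules that fell by 2.28 log2 in diabetic against nondiabetic 21-week mice (limma adjusted p = 0.000663). Egf is also among the tubule markers above. Among 20 basement membrane genes, Lama4 and Lama5, laminin chains of vessels and of epithelia, were 1.82-fold and 1.64-fold higher (limma adjusted p = 0.0271 and 0.0445). The Lama4 call was lost without diabetic array 1, 2 or 3 or nondiabetic 21-week array 1 or 3 (limma adjusted p up to 0.104). The Lama5 call held only without nondiabetic 21-week array 2 or nondiabetic 6-week array 1 and was lost without any other array (up to 0.161). In diabetic against nondiabetic mice at 21 weeks the basement membrane list's median was 0.11 log2. Between nondiabetic 21-week and 6-week mice 0 genes of any of the 8 pathway lists passed (limma). At an unadjusted p under 0.05 the basement membrane list had 7 of 20 lower and 0 higher. Of all genes, 5.27% were lower and 2.19% higher there. In the same comparison endothelial markers averaged 5.21 to 5.71 in nondiabetic 21-week mice and 5.70 to 6.20 in nondiabetic 6-week mice, with a median change of -0.53 log2 and 4 of 8 lower at an unadjusted p under 0.05, and their part was not tested.

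Among 20 inducers and transcription factors of MMP genes, 4 were higher and 1 lower in diabetic than in nondiabetic mice at 21 weeks. Of all genes, 1.1% were higher and 0.34% lower at the same threshold. The list's median change was 0.45 log2. The AP-1 subunit Fos had 8.97, 9.07, 9.20 and 9.52 in diabetic mice, 8.01, 8.16 and 8.13 in nondiabetic 21-week mice, and 8.28, 7.84 and 8.28 in nondiabetic 6-week mice, with no overlap between diabetic and nondiabetic values. It was 2.12-fold higher at 21 weeks (limma adjusted p = 0.00549), Fosb 2.69-fold (0.00395), Jun 1.85-fold (0.0118) and Runx1 1.78-fold (0.0429). The Fos and Fosb calls held in all 10 fits that left out 1 array. The Jun call was lost without diabetic array 3 (limma adjusted p = 0.0501) or nondiabetic 21-week array 1 (0.0507) or 3 (0.0571), and the Runx1 call held only without diabetic array 1 and was lost without any other (up to 0.170). Tgfb2 fell by 1.02 log2 (limma adjusted p = 0.0102). Fos, Fosb and Jun were also higher in diabetic than in nondiabetic 6-week mice, at 2.08-fold, 2.77-fold and 1.80-fold, and so was Junb, at 2.01-fold (limma adjusted p = 0.00713, 0.00442, 0.0162 and 0.0327). There the Jun call was lost without diabetic array 3 or nondiabetic 6-week array 2 or 3 (limma adjusted p up to 0.0790), and the Junb call without diabetic array 2 or 3 or any 6-week array (up to 0.137). Mmp3, Mmp7, Mmp10 and Mmp20, the tested members with an AP-1 motif in the stretch examined, had changes at 21 weeks of 0.44, -0.01, 0.01 and 0.10 log2. Whether AP-1 bears on the level of any member was not tested. The part of the digestion before RNA extraction in the levels of Fos, Fosb, Jun and Junb was not tested either.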

How the data were processed

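The authors deposited log2 intensities, 1 value for each probe set and array. Normalization was by RMA, and Affymetrix Power Tools was used, per the submitters' processing notes, which name both without a version. No other setting of that step is known here. For arrays of this kind precision is limited by their number.

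Of 41345 probe sets, 23521 had 1 gene symbol in the array's gene table, 1814 had several and 16010 were unnamed here; 85 of them belonged to the 79 members, and all 79 symbols were found in the RefSeq annotation (GRCm38.p6). A probe set was kept if at least 3 arrays had it above their 25th percentile, and each gene was read from its brightest one. All 10 arrays entered 1 model with a mean per group (R 4.3.3, limma 3.58.1 with lmFit followed by eBayes, 7 residual degrees of freedom and 5.61 from the prior). The 3 differences were tested two-sided, with Benjamini-Hochberg adjustment over 18826 genes. No pair of arrays held identical values. On simulated data for the comparison of diabetic with nondiabetic mice at 21 weeks, 200 planted changes of 1 log2 were recovered at 76%, and of 2 log2 at 100%, among 18826 genes. The simulated noise was independent for each gene and array, with no array that stood apart. Recovery in the real data may therefore be lower.

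The members and the role, pathway and marker lists were chosen with earlier results of these data known. Members named with values were those called in any comparison, the 10 with the smallest p in each, and a fixed list of well-studied members; Mmp19, Adam7, Adamts12 and the chromosome 9 cluster were named after their values were seen, as were members named in counts. Lists are described by counts and medians, with no test of their own. Alternatives were other filters, the mean of probe sets, only 2 groups in the fit, other variance models, array weights, quantile normalization, median centring, the replicate number as a block, a threshold of 0.01 and leaving out arrays. Promoters of RefSeq (GRCm38.p6) were searched on both strands for exact motif matches, taking the first window of each gene.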

Additional observations from a re-analysis of the deposited data

Results flagged for a closer look

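In 4 diabetic arrays, the distance of the highest or lowest value to its nearest neighbour was set against the whole range of the group, and a share above the critical value for 4 samples was marked. The check covered 47 sets of values, the members and marker lists named in the text, and 7 were marked. Chance marks about 1 in 20 independent sets. These sets share the same 4 arrays and are not independent, so the count cannot be set against that rate. Adam9 (0.894) and Adam17 (0.847) had their lowest diabetic value on array 4, at 6.32 and 5.05 log2. Adam15 had its highest diabetic value, 5.29, on array 3 (0.863), and Adam1a its highest, 3.80, on array 2 (0.898). Among the marker lists, the means of T cell markers (0.951) and neutrophil markers (0.855) were highest on array 4, at 5.52 and 3.30 log2. The mean of macrophage markers was highest on array 3, at 6.14 log2 (0.884). The cause of these values was not tested.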

How the results depend on the processing

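With 3 or 4 arrays per group and calls near the threshold, counts of called members depended on single arrays. For the comparison of diabetic with nondiabetic mice at 21 weeks, the 3 called members became 0 at an adjusted p under 0.01, 5 with array weights (Adam9 and Adam17 added) and 1 (Adam9) without both arrays that stood apart, an alternative chosen after seeing the data. Leaving out 1 array in turn gave 0 to 4 members: 0 without diabetic array 2 or 3 or nondiabetic 21-week array 3, and 1 without diabetic array 1, nondiabetic 21-week array 2 or nondiabetic 6-week array 3. The 271 called genes (207 higher, 64 lower) became 69 at 0.01, 161 with only the 2 groups in the fit, 175 without both arrays, and 84 to 268 with 1 array left out (lowest without nondiabetic 21-week array 3 or diabetic array 3, and more than 1.5 times fewer also without diabetic array 2 or nondiabetic 21-week array 1); quantile normalization gave 130 higher and 100 lower. For nondiabetic 21-week against 6-week mice no alternative called a member, and the 5 called genes became 3 at 0.01, 0 with only the 2 groups, 12 with a trended and robust variance, 18 with array weights, 39 without both arrays, and 1 to 10 with 1 array left out (under 4 without 6-week array 1 or 3, over 7 without 21-week array 2 or 3). For diabetic 21-week against nondiabetic 6-week mice the 1 called member became 0 at 0.01, 2 with a trended and robust variance (Adam4 added), 3 with array weights or without both arrays (Adam4 and Adam9 added), and 0 to 2 with 1 array left out, being 0 without diabetic array 2 or 3 or nondiabetic 6-week array 1 or 3. The 272 called genes there (170 higher, 102 lower) became 58, 672 with array weights, 505 without both arrays, and 48 to 393 with 1 array left out (more than 1.5 times fewer without diabetic array 2 or 3 or any 6-week array); quantile normalization gave 157 higher and 162 lower. With the replicate number as a block, 2 members (Adam28 and Adam9) were called in the first and in the last comparison; Mmp2 had an adjusted p of 0.106 and Adamts1 of 0.0560 in the first (limma). Deviations of same-numbered arrays correlated at -0.118 to 0.066, and those of differently numbered arrays at -0.109 to 0.150. With 3 or 4 arrays per group these values cannot settle whether the numbers pair the arrays. The block takes diabetic array 4, the sole one with that number, out of the comparisons. Quantile normalization put Mmp2 at an adjusted p of 0.0559 (limma).

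Among the named members, signs turned for 8 in the first comparison and for Adam28 in the second, each with a change under 0.25 log2. In the first comparison Adam12 was at -0.070 with array weights and -0.16 without both arrays, Adam15 at -0.060 with array weights, -0.078 with quantile normalization and -0.12 without both arrays, Bmp1 at -0.072 without both arrays and Mmp11 at -0.037 with quantile normalization. Timp1 was at 0.042 with quantile normalization and 0.050 with the block, and Tll2 at -0.011 with array weights, -0.010 with median centring, -0.00685 with the block and -0.063 without both arrays. With 1 array left out the changes ranged between -0.17 and 0.20 for Adam12, -0.14 and 0.16 for Adam15, -0.18 and 0.078 for Adamts4, -0.16 and 0.47 for Bmp1, -0.020 and 0.13 for Mmp11, -0.087 and 0.059 for Timp1, -0.011 and 0.47 for Timp4 and -0.052 and 0.10 for Tll2. Between nondiabetic 21-week and 6-week mice Adam28 was at 0.11 with array weights, 0.16 without both arrays and -0.26 to 0.16 with 1 array left out. The causes were not tested.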
